A study of Mus musculus with 30 samples.

Results

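The change of germ cell transcripts between 12 and 16 days post partum (dpp) in mice with working Prdm9 was read from 10 of the 30 libraries of the study, 5 at each age. The series sequenced polyadenylated RNA from enriched testicular germ cells of male mice at 8, 12 and 16 dpp, either +/+ or +/- for Prdm9 (non-mutants) or -/- (mutants). All animals were C57BL/6J with under 10% of 129S1/SvImJ, and the germ cells were enriched by digesting the tubules and washing interstitial cells away. The non-mutant 12 dpp group held 1 +/+ and 4 +/- libraries and the non-mutant 16 dpp group 2 +/+ and 3 +/- libraries, so most animals of both groups lacked 1 allele of Prdm9. Each library came from 1 animal, and the 10 animals came from 10 different litters. P-values measure the spread between these animals.

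Levels are in TPM, a gene's length-corrected share of each library's transcripts scaled to a fixed sum. Of 65534 genes and loci in the deposited table, 17814 were over 1 TPM in at least 5 of the 10 libraries and were tested. They were tested with limma on log2(TPM + 1), a scale that understates the change of low genes, and a gene is called risen or fallen where its adjusted p is under 0.05. Changes below are differences of the mean log2(TPM + 1), 16 dpp minus 12 dpp, each with its standard error (SE). Values by library are listed in a fixed order. At 12 dpp it is +/+, then +/- replicates 1, 2, 3 and 4, and at 16 dpp it is +/+ replicates 1 and 2, then +/- replicates 1, 2 and 3.

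In the first wave of mouse spermatogenesis the germ cells of a testis enter meiosis nearly together, so successive ages enrich successive stages of meiotic prophase. In leptonema and zygonema, programmed DNA breaks are made and homologous chromosomes pair along protein axes, and in pachynema the pairs are fully joined by the synaptonemal complex and crossovers mature. Pachytene spermatocytes also switch on a large set of genes whose products serve later, in the sperm tail, the acrosome and sperm metabolism, together with the precursors of pachytene piRNAs. Prdm9, a histone methyltransferase of early prophase, places the sites of the DNA breaks, and animals without it arrest with unjoined chromosomes.

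Prdm9 (ENSMUSG00000051977, mm10 chromosome 17, 15543079 to 15564354) was read first as a check of the labels. Prdm9 was at 21.2, 20.5, 16, 23.3 and 9.16 TPM in the 12 dpp libraries and at 34.4, 21.3, 23.4, 26.4 and 19.7 TPM in the 16 dpp libraries. The 2 groups overlapped, and the difference of 0.49 (SE 0.22; limma adjusted p = 0.13) was not called. The lowest of the 10 values belonged to the library labelled +/- 12 dpp replicate 4, of litter 13, whereas the litter mate labelled -/- had 19.2 TPM, so the levels of this pair go against their labels. Without the library labelled +/- 12 dpp replicate 4 the Prdm9 difference was 0.28, the lowest with 1 library left out, and again not called. Other results are given with and without that library where it moves them.

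The libraries held germ cells together with somatic cells of the tubule. Ddx4 and Dazl, RNA-binding proteins that define germ cells, stood at 131 to 285 TPM and 314 to 478 TPM. Markers of Sertoli cells, the nurse cells of the tubule, summed to 16402 to 20248 TPM at 12 dpp and 15368 to 18582 TPM at 16 dpp over 34 listed markers. Those of Leydig cells summed to 1208 to 1562 and 981 to 1316 TPM and those of peritubular myoid cells to 2212 to 3084 and 1972 to 2577 TPM. Macrophage markers summed to 74.4 to 165 TPM at 12 dpp and 129 to 258 TPM at 16 dpp. Prm1 and Prm2, the protamines of late spermatids, were listed at 0 in all 10 libraries. In bulk RNA, fewer cells of a type and less RNA per cell cannot be told apart. Read depth is unknown, since TPM keeps none, and each library held 17215 to 18343 genes over 1 TPM.

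The largest changes between 12 and 16 dpp were rises, led by Ldhc, Fabp9 and other genes of sperm metabolism and structure. Most tested genes of the flagellum (60 of 83), the acrosome (16 of 22), PIWI and piRNA factors (21 of 34) and pachytene transcription (15 of 27) rose. Apart from genes that entered the test only through 16 dpp, 47 of 70 flagellar and 14 of 20 acrosomal genes rose. Among undifferentiated spermatogonial genes 11 of 26 fell and 1 rose, among Sertoli markers 13 of 33 fell and 2 rose, and on the X chromosome 129 of 652 fell and 41 rose. Of the 17814 genes tested, 1601 rose (8.99%) and 2236 fell (12.6%), and the median of all of them was -0.08. By over 1 on the log2 scale, 549 rose (3.08%) and 109 fell (0.612%), and by over 2 the counts were 193 and 5. The split of small changes depended on scaling, with 2426 risen and 1636 fallen after median-ratio scaling, which moved the median of all genes to 0.01, and 2070 and 2381 after quantile normalization. With +/- libraries alone 1252 rose and 860 fell. Leaving out +/- 12 dpp replicate 3 took the 2236 fallen genes to 1415, leaving out +/- 16 dpp replicate 2 to 1482 and leaving out +/- 16 dpp replicate 3 to 1355. Without the library labelled +/- 12 dpp replicate 4, 525 of the 549 were again called risen by over 1.

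Groups did not overlap for 500 of the 549 genes that rose by over 1 and for 74 of the 109 that fell by over 1. Over all 42302 genes with a value in some of the 10 libraries, 3.89% had every 16 dpp library above every 12 dpp library and 3.46% had every one below. Of the 549, 133 had no 12 dpp library over 1 TPM and entered the test only through their 16 dpp levels, so they had to differ. Of the 549, 491 came from Ensembl, 50 from NONCODE and 8 from a set of piRNA precursor loci. By GENCODE biotype, 441 were protein-coding, 18 lincRNA and 14 antisense. Antisense and overlapping genes are uncertain, since no source used here says that counting followed the strand.

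A gene was named by size of change only where its groups did not overlap, so the separation of the ages in the 12 largest rises and the 12 largest falls is no finding. Ldhc, the testis-specific subunit of lactate dehydrogenase, rose most among them. Ldhc was at 2.04, 4.27, 1.99, 1.8 and 1.66 TPM in the 12 dpp libraries and at 156, 174, 42, 464 and 602 TPM in the 16 dpp libraries. At 16 dpp +/- replicate 1 was the lowest and +/- replicate 3 the highest, and the rise was 5.96 (SE 0.55; limma adjusted p = 5.32e-05). Fabp9, a testis fatty-acid-binding protein, was next. Fabp9 was at 5.4, 5.09, 5.07, 1.05 and 2.88 TPM in the 12 dpp libraries and at 130.1, 136, 76.8, 337 and 416 TPM in the 16 dpp libraries. It rose by 5.33 (SE 0.44; limma adjusted p = 5.32e-05), with the same +/- replicate 1 at the low end. Crisp2, a cysteine-rich secretory protein of the acrosome and sperm tail, was near 1 TPM or below at 12 dpp. Crisp2 was at 0.38, 1.23, 0.77, 0.26 and 0.73 TPM in the 12 dpp libraries and at 29.2, 37, 7.27, 107 and 147 TPM in the 16 dpp libraries. The rise was 4.72 (SE 0.60; limma adjusted p = 0.000367), with +/- replicates 2 and 3 the highest. Fbp1, a bisphosphatase of gluconeogenesis, was barely detected at the earlier age. Fbp1 was at 0.12, 0.67, 0.12, 0.38 and 0 TPM in the 12 dpp libraries and at 12.8, 16.1, 3.22, 53.7 and 76.8 TPM in the 16 dpp libraries. It rose by 4.1 (SE 0.61; limma adjusted p = 0.000939), with 3.22 TPM in +/- replicate 1 and 76.8 TPM in +/- replicate 3. Fbp1 entered the test only through 16 dpp, so it had to differ.

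The other 8 of the 12 largest rises are given by their means. Mroh4 went from a mean of 0.636 ± 0.548 to 66.9 ± 47.8 TPM (SD, n = 5 each), a change of 5.15 (SE 0.41; limma adjusted p = 5.23e-05). Spata4 went from 0.548 ± 0.393 to 60.2 ± 51.1 TPM (SD, n = 5 each), a change of 4.78 (SE 0.58; limma adjusted p = 0.000275). Adam2, the fertilin subunit of the sperm surface, went from 0.246 ± 0.144 to 30.2 ± 23.3 TPM (SD, n = 5 each), a change of 4.3 (SE 0.43; limma adjusted p = 7.99e-05). These 3 were at 1.22 TPM or less in every 12 dpp library, and Adam2, at 0.38 TPM or less, entered the test only through 16 dpp. Pdcl2, a phosducin-like protein, went from 0.868 ± 0.242 to 54.4 ± 37 TPM (SD, n = 5 each). Zmynd10, which helps assemble the dynein arms of cilia and flagella before they are mounted, went from 0.866 ± 0.439 to 40.6 ± 28.6 TPM (SD, n = 5 each). Dkkl1, an acrosomal protein, went from 1.93 ± 0.33 to 73.1 ± 60.6 TPM (SD, n = 5 each). For these 3 the log2 changes were 4.57, 4.20 and 4.19. Smim24, a small membrane protein, went from 4.44 ± 0.646 to 114 ± 83.4 TPM (SD, n = 5 each), and Ptchd3, a patched-domain protein, from 0.47 ± 0.297 to 21.6 ± 10.1 TPM (SD, n = 5 each). Their rises were 4.09 and 3.84, and in all 12 genes +/- replicate 1 was the lowest and +/- replicate 3 the highest library of 16 dpp.

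**Figure D1:**
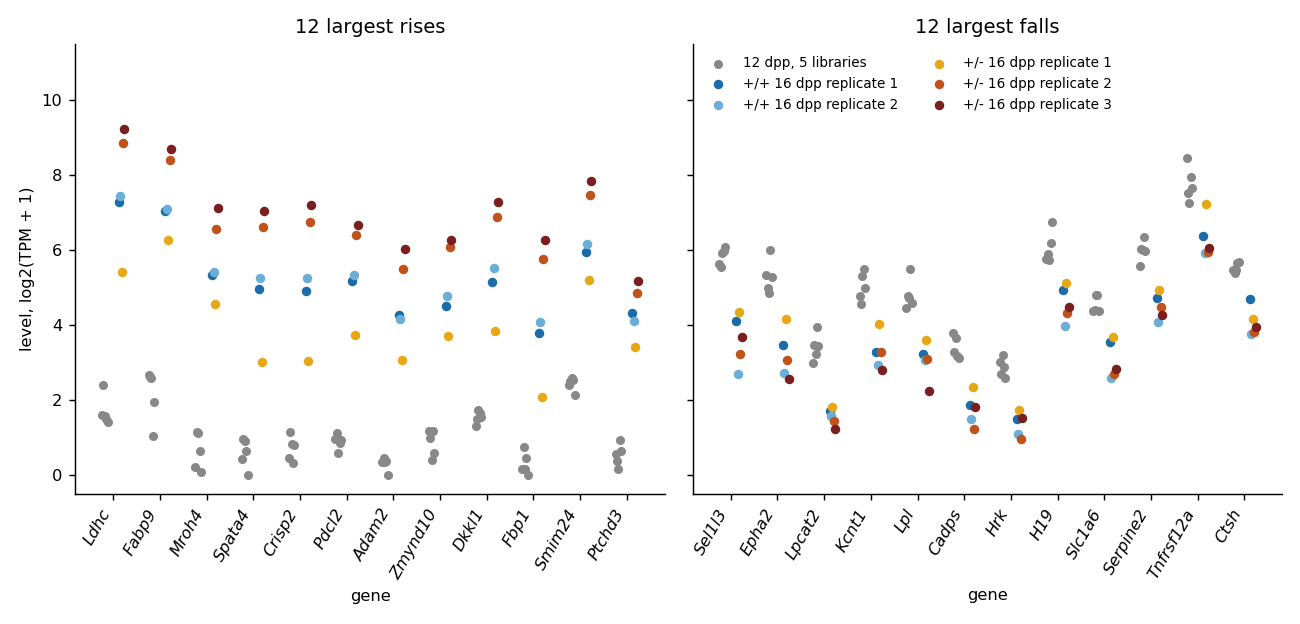
Level in log2(TPM + 1) of the 12 genes with the largest rises (left) and the 12 with the largest falls (right), 1 point per library, with the 5 libraries of 12 dpp in grey and each 16 dpp library in its own colour. The ages separate in both panels because groups that do not overlap were a condition for these genes, and in the left panel +/- replicate 3 is highest, as for Ldhc with 602 TPM.

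The 16 dpp libraries ranked the same way over most risen genes. Against the 12 dpp mean, the median rise of the 549 genes was 0.99 in +/- replicate 1, 1.32 and 1.39 in +/+ replicates 1 and 2, 2.13 in +/- replicate 2 and 2.44 in +/- replicate 3. Together these genes held 0.34 to 0.41% of the TPM at 12 dpp, and 0.877, 1.13, 1.17, 2.01 and 2.48% in the same order of 16 dpp libraries. The lowest 16 dpp library was +/- replicate 1 for 76.0% of the 549 and the highest was +/- replicate 3 for 82.3%. The +/- libraries stood at both ends of this order and the +/+ libraries between them, and whether genotype plays a part was not tested. The spread at 16 dpp was wide where the rise was large, as in Ldhc with 288 ± 235 TPM (SD, n = 5).

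Promoter sequence is shown for 4 risen genes that stand for the metabolic, flagellar, piRNA and chromatin groups described here. Windows of Hsf5, Cox7b2, Odf4 and Tdrd5, selected with them by adjusted p in limma, held none of the motifs searched and are not printed. The 250 bases before the RefSeq start of each gene (GRCm38.p6) were searched on both strands for letters bound by factors active in spermatocytes. The letters were AACTGNC for MYB proteins, GTTGCCA for RFX proteins, TGACGTCA for CREM and related proteins and CACGTG for E-box proteins. Found copies are in capitals, read 5′ to 3′ on the gene's own strand, and no copy in these 4 windows overlapped another. The Ldhc window, the first of 2 for this gene, is chr7:46861013-46861262 on the plus strand. The capitals mark a MYB match that begins 214 bases before the start. The Zmynd10 window is chr9:107547054-107547303 on the plus strand and held none of the 4 motifs. The Piwil1 window is chr5:128735996-128736245 on the plus strand, with E-boxes that begin 179 and 154 bases before the start and a MYB match in reverse orientation at 75. The Brdt window is chr5:107330944-107331193 on the plus strand, with an E-box at 78 bases before the start.
Ldhc: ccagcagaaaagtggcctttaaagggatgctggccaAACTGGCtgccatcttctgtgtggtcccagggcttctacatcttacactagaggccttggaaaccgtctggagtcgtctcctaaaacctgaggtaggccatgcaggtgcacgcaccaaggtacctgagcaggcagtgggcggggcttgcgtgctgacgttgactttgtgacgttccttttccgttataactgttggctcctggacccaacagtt
Zmynd10: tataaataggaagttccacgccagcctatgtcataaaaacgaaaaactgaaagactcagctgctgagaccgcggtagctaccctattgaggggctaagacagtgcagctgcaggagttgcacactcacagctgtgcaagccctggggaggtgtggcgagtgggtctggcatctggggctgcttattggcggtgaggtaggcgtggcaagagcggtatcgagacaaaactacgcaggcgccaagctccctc
Piwil1: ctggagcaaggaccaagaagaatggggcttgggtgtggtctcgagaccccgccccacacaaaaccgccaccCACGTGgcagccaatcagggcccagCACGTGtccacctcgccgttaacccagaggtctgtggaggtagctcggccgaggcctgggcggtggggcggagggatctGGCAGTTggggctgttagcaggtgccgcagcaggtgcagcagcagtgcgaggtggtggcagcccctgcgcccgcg
Brdt: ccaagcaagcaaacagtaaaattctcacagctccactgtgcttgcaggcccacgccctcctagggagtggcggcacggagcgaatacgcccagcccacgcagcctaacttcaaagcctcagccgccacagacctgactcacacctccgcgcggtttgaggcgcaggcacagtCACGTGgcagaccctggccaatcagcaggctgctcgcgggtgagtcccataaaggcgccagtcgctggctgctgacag

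Windows on chromosome 18 were left out of every share below. Of the 549 genes that rose by over 1, 357 matched a RefSeq window by symbol. The MYB letters were in 13.9% of their windows, in 9.47% of those of all genes tested and in 10.6% of all 32851 windows. The RFX letters were in 8.33% of the windows of risen genes, against 3.17% of those of tested genes and 3.66% of all. For the CRE letters the shares were 2.31, 2.54 and 1.55%, and for the E-box 9.95, 8.28 and 6.02%, in the same order. Windows of axoneme and flagellum genes held the MYB letters in 22.3% and the RFX letters in 11.7%. Other risen lists lay on both sides of the shares of all windows. The MYB letters were in 1.96% for the acrosome, 11.8% for PIWI and piRNA factors and 17.1% for energy metabolism. The RFX letters were in 7.84, 0.0 and 2.44%, in the same order. The MYB share was higher for synaptonemal complex, axis and cohesin genes than for axoneme and flagellum genes. Windows of the PIWI and piRNA factors held the E-box in 29.4% (10 of 34) and those of synaptonemal complex, axis and cohesin genes in 32.4% (12 of 37). The share of each list takes in every listed gene with a window, risen or not. A match describes these letters only, and whether a factor binds there was not measured.

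Genes of the axoneme and flagellum formed the largest risen group by number of genes. Of 113 listed genes in the table, 83 were tested, 60 rose and 0 fell, with a median of 1.39 over these and 0.86 over all 113. By over 1, 50 rose. The test took in 13 of the 83 only through 16 dpp, and of the other 70, 47 rose. At an unadjusted p under 0.05 limma gave 70 higher and again 0 lower. The 30 genes below the filter included Hydin, a protein of the central pair of microtubules, at a mean of 0.584 ± 0.169 TPM at 12 dpp and 1.73 ± 1.18 TPM at 16 dpp (SD, n = 5 each). Cfap44, a ciliary protein, was also below it, at 0.392 ± 0.17 TPM at 12 dpp and 1.46 ± 1.13 TPM at 16 dpp (SD, n = 5 each). The median over the list against the 12 dpp mean was 0.56 in +/- replicate 1 and 2.23 in +/- replicate 3, the same order of libraries as above.

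Rsph1, a radial spoke protein, was the highest at 16 dpp of the flagellar genes given by library here. Rsph1 was at 24.7, 27.9, 20.4, 23 and 22 TPM in the 12 dpp libraries and at 176, 180.2, 127, 359 and 461 TPM in the 16 dpp libraries. The groups did not overlap and the rise was 3.25 (SE 0.28; limma adjusted p = 5.32e-05). Cfap65, a ciliary protein needed for the sperm flagellum, was under 0.4 TPM in every 12 dpp library. Cfap65 was at 0.32, 0.33, 0.38, 0.16 and 0.15 TPM in the 12 dpp libraries and at 6.61, 9.62, 5.27, 24.8 and 30.9 TPM in the 16 dpp libraries. It rose by 3.4 (SE 0.39; limma adjusted p = 0.000194), but it entered the test only through 16 dpp, so it had to differ. Odf4, a protein of the outer dense fibres of the sperm tail, stood at 0 in 2 of the 12 dpp libraries. Odf4 was at 0, 0.37, 0.3, 0 and 0.57 TPM in the 12 dpp libraries and at 9.7, 11, 3.64, 23.9 and 28 TPM in the 16 dpp libraries. It rose by 3.45 (SE 0.40; limma adjusted p = 0.000216), and it too entered only through 16 dpp and had to differ. Meig1, which takes part in manchette transport, was already at 31.2 TPM on average at 12 dpp. Meig1 was at 31.2, 36.5, 30.6, 26.3 and 31.6 TPM in the 12 dpp libraries and at 124, 163, 69.4, 292 and 346 TPM in the 16 dpp libraries. It rose by 2.42 (SE 0.34; limma adjusted p = 0.00066), with no overlap between the ages. Dnah17, an outer-arm dynein heavy chain of sperm, rose by 1.94 (SE 0.44; limma adjusted p = 0.00903), from 0.32 ± 0.0671 to 5.74 ± 5.8 TPM (SD, n = 5 each). Dnah17 also entered only through 16 dpp. Tekt1, a tektin of the axonemal microtubules, rose by 3.03 (SE 0.43; limma adjusted p = 0.000758) and Spag6l, of the central pair, by 3.37 (SE 0.45; limma adjusted p = 0.00047).

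Acrosome genes moved the same way. Of 50 listed, 22 were tested, 2 of them only through 16 dpp, and 16 rose and 0 fell (0 also at an unadjusted p under 0.05 in limma), with a median of 1.39 over these and 0.08 over all 50. The 28 below the filter included Spam1, a hyaluronidase, at 0 in all 10 libraries, and Acrv1, at most 0.17 TPM. Tex101, a germ cell surface glycoprotein, was the most abundant of those named. Tex101 was at 233, 339.8, 218, 379 and 325 TPM in the 12 dpp libraries and at 675, 660.2, 652, 875 and 940.2 TPM in the 16 dpp libraries. It rose by 1.36 (SE 0.16; limma adjusted p = 0.000216), and the groups did not overlap. Acr, the acrosomal protease acrosin, was at 0.13 TPM or less at 12 dpp. Acr was at 0.12, 0.13, 0.12, 0 and 0 TPM in the 12 dpp libraries and at 3.65, 3.52, 2.04, 9.97 and 15 TPM in the 16 dpp libraries. It rose by 2.59 (SE 0.37; limma adjusted p = 0.000763), but it entered the test only through 16 dpp, so it had to differ. Spink2, an inhibitor of acrosin, ranged widely at 16 dpp. Spink2 was at 1.24, 1.66, 1.24, 1.6 and 0.59 TPM in the 12 dpp libraries and at 19.97, 20.4, 3.6, 70.6 and 95.8 TPM in the 16 dpp libraries. It rose by 3.6 (SE 0.63; limma adjusted p = 0.00224), with +/- replicate 1 at 3.60 TPM and the other 4 libraries at 19.97 TPM or above. Tmprss12, a membrane serine protease, rose by 2.44 (SE 0.30; limma adjusted p = 0.000322). Spaca1, an acrosomal membrane protein, changed less. Spaca1 was at 2.54, 3.27, 3.42, 2.92 and 2.39 TPM in the 12 dpp libraries and at 6.43, 7.85, 4.87, 5.89 and 6.03 TPM in the 16 dpp libraries. Its rise was 0.88 (SE 0.15; limma adjusted p = 0.00157), and its 16 dpp libraries lay between 4.87 and 7.85 TPM.

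Of 30 sperm surface genes, 8 were tested, 5 rose and 1 fell, with a median of 2.08 over these and 0.0 over all 30. Of the 5, 1 entered only through 16 dpp. Without +/- 16 dpp replicate 1, and so with a filter that asked for fewer libraries, the rises numbered 8. Clgn, the chaperone calmegin that folds the fertilin complex, was already at 8.17 TPM or above at 12 dpp. Clgn was at 10.3, 11.6, 8.17, 12.9 and 10.4 TPM in the 12 dpp libraries and at 65.2, 63.2, 42.3, 126 and 142 TPM in the 16 dpp libraries. It rose by 2.8 (SE 0.28; limma adjusted p = 7.25e-05), with every 16 dpp library above every 12 dpp library. Adam5 was at 0.68, 0.73, 1.03, 0.63 and 0.33 TPM in the 12 dpp libraries and at 13.8, 16.5, 4.01, 55.7 and 74.5 TPM in the 16 dpp libraries. Adam5 rose by 3.75 (SE 0.57; limma adjusted p = 0.00106), with no overlap between the ages. The 16 dpp range of Adam5 ran from 4.01 TPM in +/- replicate 1 to 74.5 TPM in +/- replicate 3. Adam3, a sperm migration factor, was below the filter at 0.348 ± 0.25 TPM at 12 dpp and 7.92 ± 9.88 TPM at 16 dpp (SD, n = 5 each), with 0.28 TPM in +/- replicate 1 and 24.2 TPM in +/- replicate 3. Ace, the angiotensin-converting enzyme, fell by 0.48 (SE 0.11; limma adjusted p = 0.0104), and its testis isoform cannot be told from the somatic one in these gene-level values.

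Genes of spermatocyte energy metabolism rose in 17 of 31 tested members and fell in 2, with a median of 0.69. Over all 43 listed genes, 12 of them below the filter, the median was 0.28, and of the 28 that did not enter only through 16 dpp 14 rose. Cox8c, a testis form of a cytochrome oxidase subunit, was one of the larger rises. Cox8c was at 5.55, 7.79, 8.92, 10.2 and 5.64 TPM in the 12 dpp libraries and at 83.2, 87.2, 38.7, 189.5 and 245 TPM in the 16 dpp libraries. It rose by 3.66 (SE 0.39; limma adjusted p = 0.000127), and the groups did not overlap. Cox7b2, another testis form, rose by 1.78 (SE 0.19; limma adjusted p = 0.000115). Cyct, testis cytochrome c, stood between 22.5 and 26.6 TPM in the 12 dpp libraries. Cyct was at 26.6, 26.5, 26.1, 22.5 and 25.6 TPM in the 12 dpp libraries and at 54.9, 60.3, 45.9, 106 and 111 TPM in the 16 dpp libraries. It rose by 1.44 (SE 0.21; limma adjusted p = 0.00089), and its 12 and 16 dpp values did not overlap. Slc2a3 was at 23.6, 23.4, 24.3, 19.7 and 24.4 TPM in the 12 dpp libraries and at 75.6, 74, 39.3, 241 and 296 TPM in the 16 dpp libraries. Slc2a3, a neuronal and germ cell glucose transporter, rose by 2.2 (SE 0.44; limma adjusted p = 0.00442), with every 16 dpp library above every 12 dpp library. The 2 highest libraries were again +/- replicates 2 and 3. Smpd5, a sphingomyelinase, rose by 3.57 (SE 0.39; limma adjusted p = 0.000135). The 2 that fell were Gpi1, a glycolytic isomerase, by 0.35 (SE 0.10; limma adjusted p = 0.0295), and Pank4 by 0.29 (SE 0.09; limma adjusted p = 0.0382). The call of Gpi1 was lost without any 1 library except +/+ 12 dpp replicate 1, +/- 12 dpp replicate 2, +/- 12 dpp replicate 3 and +/- 16 dpp replicate 1, with a change of -0.29 to -0.35 and a limma adjusted p of 0.0503 to 0.074. The call of Pank4 was lost without any 1 library except +/+ 12 dpp replicate 1, +/- 12 dpp replicate 1 and +/- 16 dpp replicate 1, with a change of -0.24 to -0.31 and a limma adjusted p of 0.0563 to 0.0924. Gapdhs, the sperm glyceraldehyde phosphate dehydrogenase, stayed at 0 in 9 of the 10 libraries.

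Autosomal retrogenes are copies of X-linked genes that can be transcribed while the X chromosome is silenced in pachynema. Of 11 tested, 8 rose and 0 fell (1 lower at an unadjusted p under 0.05 in limma), with a median of 0.91. The test took in 3 of the 11 only through 16 dpp, and of the other 8, 5 rose. Their 12 tested X-linked parents gave 0 risen, also at an unadjusted p under 0.05, and 5 fallen, with a median of -0.24. The 5 falls were unstable, with 0 left without +/- 16 dpp replicate 3, 1 or 2 left without any other single library except +/- 16 dpp replicate 1, and 0 left after median-ratio scaling. Pdha2, the retrogene of a pyruvate dehydrogenase subunit, showed tight 12 dpp values. Pdha2 was at 5.62, 6.09, 5.17, 5.6 and 5.49 TPM in the 12 dpp libraries and at 26, 26.3, 16.3, 45.9 and 53.3 TPM in the 16 dpp libraries. It rose by 2.27 (SE 0.25; limma adjusted p = 0.000151), with no overlap between the ages. Pdha1, its X-linked parent, went the other way. Pdha1 was at 36.6, 41.5, 36.4, 35.1 and 35.8 TPM in the 12 dpp libraries and at 29.4, 31.6, 35.1, 30 and 24.1 TPM in the 16 dpp libraries. It fell by 0.3 (SE 0.10; limma adjusted p = 0.0448), and the highest 16 dpp library, +/- replicate 1, lay close under the lowest 12 dpp library. The call of Pdha1 was lost without any 1 library except +/- 16 dpp replicate 1, with a change of -0.23 to -0.32 and a limma adjusted p of 0.0552 to 0.103. Cetn1 was at 0.74, 0.64, 0.6, 0.31 and 0.85 TPM in the 12 dpp libraries and at 13.9, 16.5, 5.96, 44.3 and 66.1 TPM in the 16 dpp libraries. Cetn1, a centrin, rose by 3.79 (SE 0.48; limma adjusted p = 0.00035), but it entered the test only through 16 dpp, so it had to differ. Rpl39l, a ribosomal protein retrogene, rose by 0.8 (SE 0.12; limma adjusted p = 0.000906). Pgk2, the retrogene of phosphoglycerate kinase, was below the filter at 0.046 ± 0.0631 TPM at 12 dpp and 4.09 ± 4.25 TPM at 16 dpp (SD, n = 5 each).

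PIWI proteins and piRNA factors were all tested, 34 of 34, and 21 rose and 0 fell (3 lower at an unadjusted p under 0.05 in limma), with a median of 0.49. Piwil1, the PIWI protein that binds pachytene piRNAs, rose by far the most of those named. Piwil1 was at 4.47, 3.2, 2.87, 2.93 and 3.84 TPM in the 12 dpp libraries and at 44.4, 45.4, 18.9, 109 and 135 TPM in the 16 dpp libraries. The groups did not overlap and the rise was 3.7 (SE 0.41; limma adjusted p = 0.00015). Tdrd6 was at 1.68, 0.57, 1.12, 0.41 and 0.22 TPM in the 12 dpp libraries and at 4.8, 7.88, 3.3, 23.6 and 40.9 TPM in the 16 dpp libraries. Tdrd6, a tudor protein of the chromatoid body, rose by 2.77 (SE 0.53; limma adjusted p = 0.00356), with every 16 dpp library above every 12 dpp library. Tdrd5, another tudor protein of germ granules, rose by 1.23 (SE 0.19; limma adjusted p = 0.00106) with no overlap. Tdrd9, a helicase of the pathway, rose by 0.73 (SE 0.12; limma adjusted p = 0.00144). Ddx4 was at 146, 144, 131, 133 and 158 TPM in the 12 dpp libraries and at 227, 191, 187, 261 and 285 TPM in the 16 dpp libraries. Ddx4, the germ cell helicase, rose by 0.67 (SE 0.11; limma adjusted p = 0.00179), with no overlap between the ages. Mael, of the nuage, rose by 0.6 (SE 0.12; limma adjusted p = 0.00495), and Mov10l1, a helicase that loads piRNA precursors, by 0.55 (SE 0.10; limma adjusted p = 0.00251). The changes of these last 4 were under 1 on the log2 scale.

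The piRNA precursor loci were mostly too low for the filter. Of 105 loci, 10 passed it, 6 of them only through 16 dpp, so that they had to differ, and these 6 rose. Of the other 4, 2 rose and 0 fell. The median was 1.56 over the 10 (3.72 at pseudocount 0.1) and 0.43 over all 105, and without a filter 44 of 96 rose and 0 fell. In the 10, limma gave 0 lower at an unadjusted p under 0.05. Without +/- 12 dpp replicate 1, or without the library labelled +/- 12 dpp replicate 4, 13 of 15 rose, under a filter that asked for fewer libraries. Over all 105 loci 64 had every 16 dpp library above every 12 dpp library, against 3.89% of all genes. The locus pi-17-qC-935 was the highest of those named. pi-17-qC-935 was at 0.15, 0.48, 0.3, 0.46 and 0.14 TPM in the 12 dpp libraries and at 13.2, 21.1, 7.61, 51.8 and 57.6 TPM in the 16 dpp libraries. It rose by 4.22 (SE 0.44; limma adjusted p = 0.000104), and it was among the loci that entered only through 16 dpp. The locus pi-4-qB3-277 reached lower levels. pi-4-qB3-277 was at 0.06, 0.17, 0.04, 0.25 and 0.06 TPM in the 12 dpp libraries and at 1.64, 1.95, 1.71, 3.31 and 5.13 TPM in the 16 dpp libraries. It rose by 1.67 (SE 0.23; limma adjusted p = 0.000522), and it too entered only through 16 dpp. These loci can overlap Ensembl and NONCODE genes, and how reads were split between them is not stated.

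Transcription regulators of pachynema rose in 15 of 27 tested members and fell in 1, with a median of 0.49. Kctd19, a meiotic protein that binds Zfp541, showed the largest rise among those named. Kctd19 was at 2.67, 5.17, 1.94, 5.74 and 2.57 TPM in the 12 dpp libraries and at 39.99, 35.8, 31.7, 66.4 and 95.8 TPM in the 16 dpp libraries. The groups did not overlap and the rise was 3.52 (SE 0.31; limma adjusted p = 5.32e-05). Rfx2 was at 4.54, 5.1, 3.52, 7.73 and 5.37 TPM in the 12 dpp libraries and at 12.7, 17, 16.2, 28.2 and 39.8 TPM in the 16 dpp libraries. Rfx2, a factor of ciliary and spermatid genes, rose by 1.84 (SE 0.27; limma adjusted p = 0.000893), with every 16 dpp library above every 12 dpp library. Its 16 dpp values ran from 12.7 to 39.8 TPM. Rfx4 rose by 2.09 (SE 0.36; limma adjusted p = 0.00215) from 0.25 TPM or less at 12 dpp, so it entered the test only through 16 dpp. Hsf5 was at 1.99, 2.67, 1.94, 3.12 and 2.41 TPM in the 12 dpp libraries and at 14.8, 14.6, 10.3, 24.8 and 31.7 TPM in the 16 dpp libraries. Hsf5, a heat shock factor family member of spermatocytes, rose by 2.47 (SE 0.25; limma adjusted p = 8.59e-05), with no overlap between the ages. Brdt was at 16.2, 17.5, 15.4, 19.9 and 23.2 TPM in the 12 dpp libraries and at 52.6, 48.7, 42.2, 60.7 and 78 TPM in the 16 dpp libraries. Brdt, a bromodomain protein of meiotic chromatin, rose by 1.55 (SE 0.16; limma adjusted p = 8.59e-05), and its 12 and 16 dpp values did not overlap. Sox30 rose by 1.4 (SE 0.17; limma adjusted p = 0.000236) and Zfp541 by 1.13 (SE 0.18; limma adjusted p = 0.00117). Mybl1, the MYB factor that drives pachytene genes and piRNA loci, rose less. Mybl1 was at 25.1, 17.1, 17.5, 18.9 and 16.3 TPM in the 12 dpp libraries and at 32.6, 26.2, 28.9, 33.8 and 33.8 TPM in the 16 dpp libraries. Its rise was 0.69 (SE 0.12; limma adjusted p = 0.00235), and the lowest 16 dpp library lay just above the highest 12 dpp library. Tcfl5, another such factor, rose by 0.89 (SE 0.15; limma adjusted p = 0.00198). Crem, a factor of spermatid genes, was not called, with a change of 0.43 (SE 0.17; limma adjusted p = 0.0872). The call of Crem was gained without +/+ 12 dpp replicate 1, with a change of 0.56 and a limma adjusted p of 0.03. Mamld1, an X-linked coactivator, fell by 0.63 (SE 0.10; limma adjusted p = 0.00106).

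**Figure D2:**
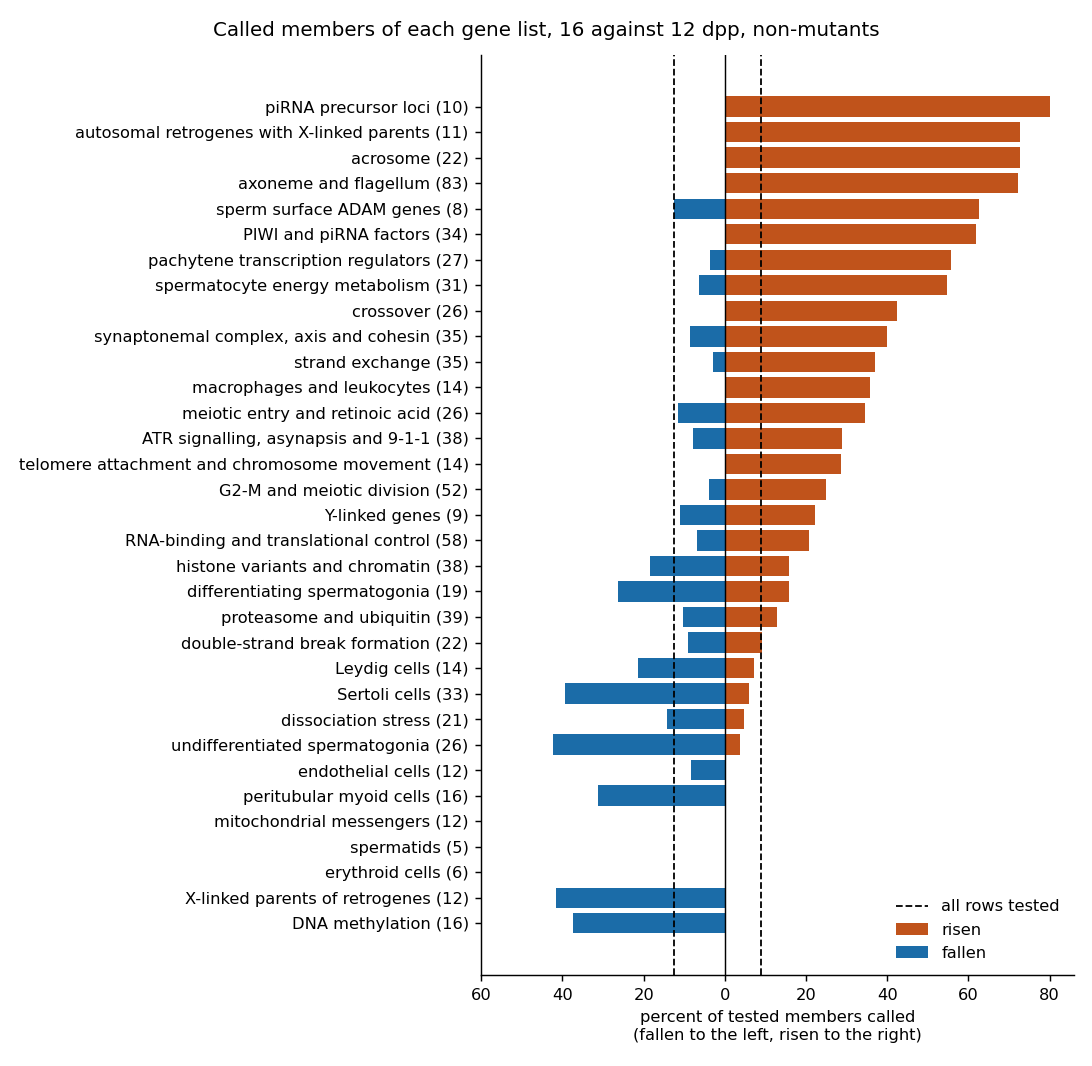
Percent of the tested members of each gene list that rose (to the right) or fell (to the left) between 12 and 16 dpp, with the number tested in brackets and dashed lines at the shares over all genes tested, 8.99% and 12.6%. The piRNA precursor loci, retrogene, acrosome and axoneme lists reach above 70% risen, but 6 of 10, 3 of 11, 2 of 22 and 13 of 83 of their members entered only through 16 dpp, and of the others 50.0, 62.5, 70.0 and 67.1% rose. On the other side, undifferentiated spermatogonia, X-linked parents and Sertoli cells lie furthest to the left.

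The chromosome axes and the synaptonemal complex were already expressed at 12 dpp, and most of their genes were not called. Of 35 tested genes of the complex, axis and cohesin, 14 rose, 3 fell and 18 were not called, with a median of 0.11. Without +/- replicate 3 of either age 1 of the 3 falls was left, and without +/- 16 dpp replicate 1 there were 5. Sycp3, the lateral element protein, was among the more abundant. Sycp3 was at 169, 205, 138, 244 and 235 TPM in the 12 dpp libraries and at 463, 404, 344, 432 and 485 TPM in the 16 dpp libraries. It rose by 1.12 (SE 0.15; limma adjusted p = 0.000436), with no overlap. Sycp1, the transverse filament protein, rose by 1.01 (SE 0.13; limma adjusted p = 0.000413) and Sycp2 by 1.15 (SE 0.12; limma adjusted p = 0.000126). Hormad1 was at 66.4, 91.5, 60.8, 100.7 and 103 TPM in the 12 dpp libraries and at 260.4, 244, 180.04, 258 and 308 TPM in the 16 dpp libraries. Hormad1, an axis protein that is stripped from joined chromosomes, rose by 1.57 (SE 0.17; limma adjusted p = 0.000118), with every 16 dpp library above every 12 dpp library. Meikin, the regulator of meiotic kinetochores, was under 1 TPM in every 12 dpp library, so it entered the test only through 16 dpp. Meikin rose by 2.27 (SE 0.27; limma adjusted p = 0.000227). Rad21, the mitotic cohesin subunit, fell by 0.31 (SE 0.07; limma adjusted p = 0.00715), and Rec8, its meiotic counterpart, was not called with a change of 0.15 (SE 0.15; limma adjusted p = 0.494).

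Of 22 tested genes of DNA break formation, 2 rose and 2 fell, with a median of 0.07. The falls numbered 0 without +/- 12 dpp replicate 2, either +/+ library of 16 dpp or +/- 16 dpp replicate 3, and 4 without +/- 16 dpp replicate 1. The rises numbered 1 without +/- 16 dpp replicate 2 and 4 after median-ratio scaling. Spo11, the enzyme that cuts the DNA, rose most. Spo11 was at 4.77, 8.1, 6.25, 8.8 and 8.91 TPM in the 12 dpp libraries and at 21.2, 15.9, 17.5, 25.4 and 26.3 TPM in the 16 dpp libraries. It rose by 1.42 (SE 0.18; limma adjusted p = 0.000395), with no overlap. Gm960, the symbol in the table for the Top6bl subunit of the cutting complex, rose by 0.43 (SE 0.12; limma adjusted p = 0.0202). The call of Gm960 was lost without +/- 16 dpp replicate 2, with a change of 0.42 and a limma adjusted p of 0.0503. The histone methyltransferases Ehmt1 and Ehmt2 fell by 0.41 (SE 0.12; limma adjusted p = 0.0256) and 0.35 (SE 0.10; limma adjusted p = 0.0237). The call of Ehmt1 was lost without any 1 library except +/+ 12 dpp replicate 1, +/- 12 dpp replicate 1, +/- 16 dpp replicate 1 and +/- 16 dpp replicate 2, with a change of -0.34 to -0.41 and a limma adjusted p of 0.0518 to 0.0624. The call of Ehmt2 was lost without any 1 of +/- 12 dpp replicate 2, +/+ 16 dpp replicate 1, +/+ 16 dpp replicate 2 and +/- 16 dpp replicate 3, with a change of -0.30 to -0.34 and a limma adjusted p of 0.0543 to 0.0587. Among 35 genes of strand exchange, 13 rose and 1 fell, with a median of 0.19, and 8 rose without +/- 16 dpp replicate 2 or without +/- 16 dpp replicate 3. Dmc1 was at 24.9, 43.7, 38.5, 49.1 and 53.9 TPM in the 12 dpp libraries and at 64.7, 56.1, 51.9, 54.8 and 64.1 TPM in the 16 dpp libraries. Dmc1, the meiotic recombinase, rose by 0.5 (SE 0.17; limma adjusted p = 0.048). Its groups overlapped. The call of Dmc1 was lost without any 1 library except +/- 12 dpp replicate 3, the library labelled +/- 12 dpp replicate 4 and +/- 16 dpp replicate 1, with a change of 0.33 to 0.53 and a limma adjusted p of 0.0504 to 0.103. Rad51ap2 rose by 1.36 (SE 0.18; limma adjusted p = 0.000527) and Mnd1, a partner of Dmc1, by 0.67 (SE 0.10; limma adjusted p = 0.000805).

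Crossover genes rose in 11 of 26 tested members and fell in 0 (0 also at an unadjusted p under 0.05 in limma), with a median of 0.31. Cntd1, a cyclin-like factor that turns recombination intermediates into crossovers, rose most of those named. Cntd1 was at 8.12, 15.5, 8.71, 13.1 and 9.47 TPM in the 12 dpp libraries and at 52.1, 48.5, 39.2, 75.3 and 91.1 TPM in the 16 dpp libraries. The groups did not overlap and the rise was 2.35 (SE 0.23; limma adjusted p = 6.51e-05). The gene listed as 1700028K03Rik, which encodes the crossover protein SPO16, was lower at both ages. 1700028K03Rik was at 5.92, 4.04, 3.55, 4.23 and 4.08 TPM in the 12 dpp libraries and at 9.77, 8.93, 7.11, 14.1 and 13.5 TPM in the 16 dpp libraries. It rose by 1.1 (SE 0.18; limma adjusted p = 0.00178), with no overlap. Msh4, of the complex that stabilises crossover intermediates, rose by 1.38 (SE 0.20; limma adjusted p = 0.000906) and Hfm1, a helicase, by 1.09 (SE 0.16; limma adjusted p = 0.0008). Of 14 tested genes of telomere attachment, 4 rose and 0 fell (2 lower at an unadjusted p under 0.05 in limma), and 8 rose after median-ratio scaling. Among them Spdya, the activator of the telomere-bound kinase, rose by 1.55 (SE 0.22; limma adjusted p = 0.000749) and Majin, which anchors telomeres to the nuclear envelope, by 1.02 (SE 0.19; limma adjusted p = 0.00335).

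Of 38 tested genes of ATR signalling, asynapsis sensing and the 9-1-1 clamp, 11 rose and 3 fell, with a median of 0.07. The 3 falls were 1 without any of 7 single libraries, namely +/- 12 dpp replicates 2 and 3, the library labelled +/- 12 dpp replicate 4, both +/+ libraries of 16 dpp and +/- 16 dpp replicates 2 and 3. Mdc1, the adaptor that spreads the damage mark over the sex chromosomes, rose by 0.93 (SE 0.14; limma adjusted p = 0.00106), and H2afx, the histone that carries the mark, by 0.75 (SE 0.12; limma adjusted p = 0.0011). Of 26 genes of meiotic entry, 9 rose and 3 fell, with 5 falls without +/- 16 dpp replicate 1, and Stra8, the retinoic acid target that starts meiosis, was not called. Stra8 was at 167, 147, 165, 158 and 163 TPM in the 12 dpp libraries and at 177, 206, 176, 214 and 139 TPM in the 16 dpp libraries. The values of Stra8 overlapped, with a change of 0.17 (SE 0.10; limma adjusted p = 0.237). The call of Stra8 was gained without +/- 16 dpp replicate 3, with a change of 0.27 and a limma adjusted p of 0.0416.

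Among 52 genes of the G2-M transition and meiotic division, 13 rose and 2 fell, with a median of 0.02, and 20 rose after median-ratio scaling. Hspa2, the chaperone that spermatocytes need to activate Cdk1, was the largest of those named. Hspa2 was at 50.2, 58.1, 49.1, 69 and 51.4 TPM in the 12 dpp libraries and at 169.9, 174, 139, 297 and 346 TPM in the 16 dpp libraries. It rose by 1.92 (SE 0.22; limma adjusted p = 0.000172), with no overlap. Cdk1 was at 67.6, 73.1, 57.7, 70.2 and 69 TPM in the 12 dpp libraries and at 111, 100.9, 102, 101.1 and 119 TPM in the 16 dpp libraries. Cdk1 rose by 0.66 (SE 0.08; limma adjusted p = 0.000266), with no overlap between the ages. Pkmyt1, which inhibits Cdk1, rose by 1.07 (SE 0.15; limma adjusted p = 0.0008). Ccnb1, the mitotic partner of Cdk1, was not called, with a change of -0.13 (SE 0.11; limma adjusted p = 0.438), and Ccna1, the cyclin of late meiosis, was below the filter at 0.476 ± 0.412 TPM at 12 dpp and 1.78 ± 2.24 TPM at 16 dpp (SD, n = 5 each). Ccnd2, a cyclin of spermatogonia, fell by 0.9 (SE 0.16; limma adjusted p = 0.00235). Of 58 RNA-binding genes 12 rose and 4 fell, and 19 rose after median-ratio scaling. Ybx2, which stores messengers in late spermatocytes and spermatids, led these. Ybx2 was at 19, 31.2, 27.9, 37.2 and 23.6 TPM in the 12 dpp libraries and at 128, 154, 116, 288 and 354 TPM in the 16 dpp libraries. It rose by 2.75 (SE 0.29; limma adjusted p = 0.000107), and Boll by 1.24 (SE 0.20; limma adjusted p = 0.00142). Of 39 proteasome and ubiquitin genes 5 rose and 4 fell, with 2 falls without +/- 12 dpp replicate 2 and 8 rises after median-ratio scaling. Psma8 was at 18.5, 15.3, 14.7, 13.6 and 17.1 TPM in the 12 dpp libraries and at 73.4, 67.1, 50.3, 115 and 132 TPM in the 16 dpp libraries. Psma8, the spermatocyte subunit of the proteasome, rose by 2.31 (SE 0.22; limma adjusted p = 5.32e-05), and its 12 and 16 dpp values did not overlap. Its 12 dpp libraries lay between 13.6 and 18.5 TPM and its 16 dpp libraries at 50.3 TPM or above.

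**Figure D3:**
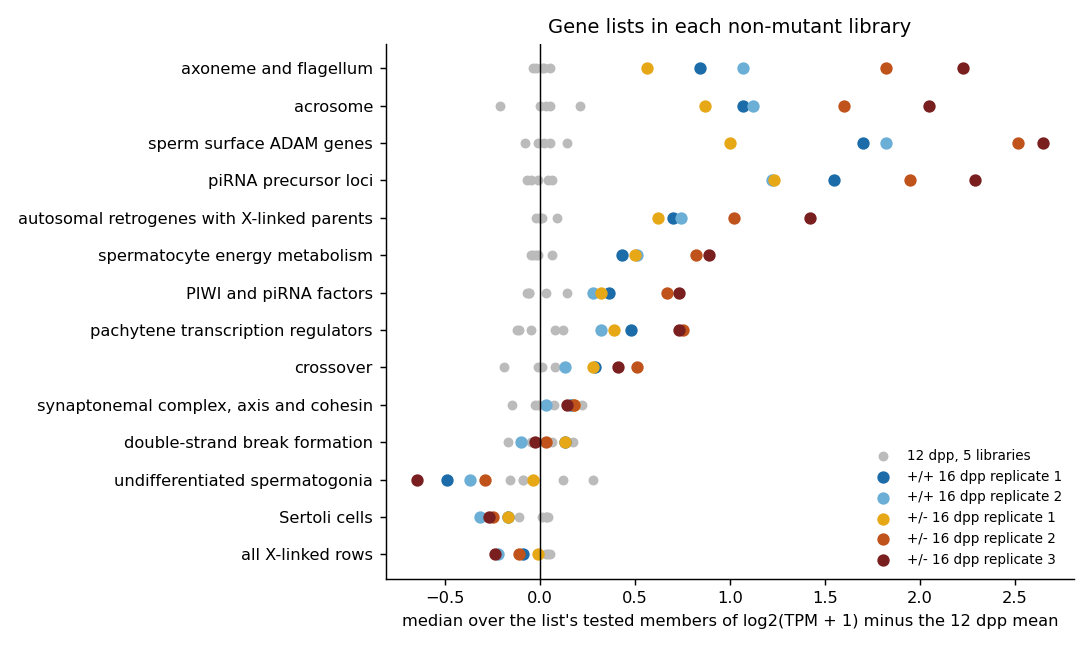
Median over the tested members of 14 gene lists of log2(TPM + 1) minus the 12 dpp mean, 1 point per library, 12 dpp in grey and the 5 libraries of 16 dpp in colour. For axoneme and flagellum the 16 dpp libraries run from 0.56 in +/- replicate 1 to 2.23 in +/- replicate 3, whereas for double-strand break formation the ages overlap.

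The largest falls were smaller than the largest rises. Sel1l3 fell most among the genes named by size. Sel1l3 was at 49, 45.6, 59.8, 61.9 and 67.2 TPM in the 12 dpp libraries and at 16.4, 5.46, 19.4, 8.37 and 11.9 TPM in the 16 dpp libraries. It fell by 2.22 (SE 0.26; limma adjusted p = 0.000213). Epha2 was at 39.8, 30.8, 28.1, 63.2 and 37.6 TPM in the 12 dpp libraries and at 10.03, 5.66, 16.8, 7.42 and 4.87 TPM in the 16 dpp libraries. Epha2, an ephrin receptor kinase, fell by 2.1 (SE 0.28; limma adjusted p = 0.000522). Lpcat2, a lysophospholipid acyltransferase, fell by 1.86 (SE 0.18; limma adjusted p = 7.25e-05). Kcnt1, a sodium-activated potassium channel, fell by 1.76 (SE 0.23; limma adjusted p = 0.000421), and Lpl, lipoprotein lipase, by 1.76 (SE 0.24; limma adjusted p = 0.000567). Cadps was at 12.7, 8.77, 11.7, 8.12 and 7.64 TPM in the 12 dpp libraries and at 2.64, 1.83, 4.12, 1.35 and 2.5 TPM in the 16 dpp libraries. Cadps, a vesicle priming factor, fell by 1.65 (SE 0.21; limma adjusted p = 0.000379). Hrk, a pro-apoptotic protein, fell by 1.5 (SE 0.18; limma adjusted p = 0.000266), and H19, an imprinted non-coding RNA, by 1.5 (SE 0.23; limma adjusted p = 0.00106). H19 was at 53.7, 59.1, 52, 71.8 and 106 TPM in the 12 dpp libraries and at 29.6, 14.8, 34, 18.9 and 21.6 TPM in the 16 dpp libraries.

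The remaining 4 were Slc1a6, a glutamate transporter, Serpine2, a protease inhibitor, Tnfrsf12a, the receptor of the cytokine TWEAK, and Ctsh, cathepsin H. Slc1a6 went from 22.8 ± 3.89 to 7.81 ± 3.21 TPM (SD, n = 5 each) and Serpine2 from 63.5 ± 12.2 to 22.2 ± 5.46 TPM (SD, n = 5 each). Tnfrsf12a went from 228 ± 77.7 to 83.8 ± 38 TPM (SD, n = 5 each) and Ctsh from 45.5 ± 4.07 to 16.4 ± 4.93 TPM (SD, n = 5 each). They fell by 1.49, 1.49, 1.46 and 1.45 in that order. The median change of the 109 genes that fell by over 1 was -0.79 in +/- replicate 1, -1.16 and -1.38 in +/+ replicates 1 and 2, -1.37 in +/- replicate 2 and -1.43 in +/- replicate 3. Without +/- 16 dpp replicate 1, 181 genes fell by over 1.

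Genes of undifferentiated spermatogonia, the stem and progenitor cells, fell in 11 of 26 tested members and rose in 1, with a median of -0.41. That count fell to 4 without +/+ 16 dpp replicate 2 or +/- 16 dpp replicate 3, to 5 without +/+ 12 dpp replicate 1, +/+ 16 dpp replicate 1 or the library labelled +/- 12 dpp replicate 4, and to 6 without +/- 12 dpp replicate 2, and it was 7 after median-ratio scaling. Itga6, a surface integrin of these cells, was the firmest. Itga6 was at 89.97, 87.2, 97.9, 97.5 and 79 TPM in the 12 dpp libraries and at 58.9, 47.1, 61.7, 51.6 and 55.1 TPM in the 16 dpp libraries. It fell by 0.71 (SE 0.09; limma adjusted p = 0.000323), with no overlap. Gfra1 was at 18.6, 8.94, 13.5, 12.8 and 14.7 TPM in the 12 dpp libraries and at 7.41, 8.13, 12.4, 8.2 and 6.6 TPM in the 16 dpp libraries. Gfra1, the receptor of GDNF, fell by 0.62 (SE 0.19; limma adjusted p = 0.0348). Its groups overlapped. The call of Gfra1 was lost without any 1 library except +/- 12 dpp replicate 1 and +/- 16 dpp replicate 1, with a change of -0.51 to -0.63 and a limma adjusted p of 0.0609 to 0.0839. Zbtb16, a stem cell factor, fell by 0.62 (SE 0.17; limma adjusted p = 0.0195). Id4, a helix-loop-helix factor that marks stem cells and is also made in spermatocytes, went against its list. Id4 was at 16.2, 16.2, 10.9, 13.1 and 14.2 TPM in the 12 dpp libraries and at 29.6, 43.1, 26.6, 40.7 and 40.4 TPM in the 16 dpp libraries. It rose by 1.28 (SE 0.15; limma adjusted p = 0.000216), with no overlap. Of 19 genes of differentiating spermatogonia 3 rose and 5 fell, and 8 fell without +/- 16 dpp replicate 1. Kit, their receptor, was not called, with a change of -0.32 (SE 0.12; limma adjusted p = 0.0893). The call of Kit was gained without +/+ 12 dpp replicate 1 or +/- 16 dpp replicate 1, with a change of -0.40 and a limma adjusted p of 0.0259 to 0.0388. Sohlh1, a factor of these cells, fell by 0.48 (SE 0.12; limma adjusted p = 0.0167).

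Of 16 DNA methylation and demethylation genes, 6 fell and 0 rose (0 also at an unadjusted p under 0.05 in limma), with a median of -0.30. Tet3 was at 43.5, 36.9, 48.9, 51.4 and 44.5 TPM in the 12 dpp libraries and at 25.3, 25.1, 35.7, 28.4 and 24.2 TPM in the 16 dpp libraries. Tet3, a demethylating oxygenase, fell by 0.69 (SE 0.12; limma adjusted p = 0.00215), with every 16 dpp library below every 12 dpp library. The de novo methyltransferases Dnmt3a and Dnmt3b fell by 0.57 (SE 0.11; limma adjusted p = 0.00431) and 0.57 (SE 0.14; limma adjusted p = 0.0124). Of 38 histone variant and chromatin genes 6 rose and 7 fell. Those 7 falls were 2 or 3 without any of +/- 12 dpp replicates 2 and 3, the library labelled +/- 12 dpp replicate 4, both +/+ libraries of 16 dpp and +/- 16 dpp replicates 2 and 3, and 3 after median-ratio scaling. Morc2b, a germ cell ATPase of the MORC family, was the largest change of those named. Morc2b was at 0.14, 0.21, 0, 0.1 and 0 TPM in the 12 dpp libraries and at 9.99, 9.12, 5.22, 22.1 and 27.2 TPM in the 16 dpp libraries. It rose by 3.64 (SE 0.34; limma adjusted p = 5.32e-05), but it entered the test only through 16 dpp, so it had to differ. Hist1h1t, the testis linker histone of pachynema, was below the filter, at most 1.54 TPM.

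Markers of Sertoli cells fell in 13 of 33 tested members and rose in 2, with a median of -0.27. Amh, the hormone of immature Sertoli cells, fell most of those named. Amh was at 245, 233, 204, 272 and 249 TPM in the 12 dpp libraries and at 116, 111, 133, 92.3 and 96.8 TPM in the 16 dpp libraries. It fell by 1.13 (SE 0.10; limma adjusted p = 5.32e-05), with no overlap. Sox9, which fixes Sertoli cell identity, fell by 0.35 (SE 0.09; limma adjusted p = 0.0184), and Dhh, a ligand for interstitial cells, by 0.57 (SE 0.09; limma adjusted p = 0.00142). Tsx was at 44.8, 38.3, 26.6, 11.7 and 23.4 TPM in the 12 dpp libraries and at 116, 133, 69.8, 116 and 126 TPM in the 16 dpp libraries. Tsx, an X-linked gene of the testis, rose by 2.01 (SE 0.29; limma adjusted p = 0.000801). The summed Sertoli level of all 34 listed markers overlapped between ages. Of 14 Leydig markers 1 rose and 3 fell, with 1 fall left without +/- 12 dpp replicate 1, +/+ 16 dpp replicate 2, +/- 16 dpp replicate 2 or +/- 16 dpp replicate 3. Of 16 peritubular myoid markers 5 fell, with 2 or 3 left without +/- 12 dpp replicate 1, 2 or 3, +/+ 16 dpp replicate 1 or +/- 16 dpp replicate 3. Macrophage markers gave 5 risen of 14, with 2 or 3 left without any of 7 single libraries, all but +/- 12 dpp replicate 2, +/+ 16 dpp replicate 1 and +/- 16 dpp replicate 1. The part these cells play in the falls and rises of other genes was not tested.

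In pachynema the unjoined arms of the X and Y chromosomes are silenced in the sex body. Of 652 X-linked genes tested, 41 rose (6.29%) and 129 fell (19.8%), with a median of -0.14, against 10.3% risen and 13.1% fallen of 13815 autosomal genes with a median of -0.06. By over 1, 10 X-linked genes rose and 2 fell. The count of 129 was 84 without +/- 12 dpp replicate 2 or +/+ 16 dpp replicate 2, 80 without +/- 12 dpp replicate 3, 77 without +/- 16 dpp replicate 2 and 71 without +/- 16 dpp replicate 3. After median-ratio scaling 56 rose and 81 fell. X-linked genes held 3.15 to 3.23% of the TPM in the 12 dpp libraries and 2.67, 2.72, 2.90, 3.05 and 3.16% in the 16 dpp libraries from lowest to highest, so the ages overlapped by 1 library. Chromosome 18 also had a high share of falls, 18.2% of 347 genes with 7.20% risen. Zfy1, a Y-linked zinc finger gene, rose. Zfy1 was at 2.73, 3.32, 2.74, 4.16 and 2.99 TPM in the 12 dpp libraries and at 4.99, 5.55, 5.39, 5.56 and 5.37 TPM in the 16 dpp libraries. Its rise was 0.62 (SE 0.13; limma adjusted p = 0.00642). Zfy2 rose by 0.82 (SE 0.25; limma adjusted p = 0.0356), with overlap in its values. The call of Zfy2 was lost without any 1 library except +/- 12 dpp replicate 3 and the library labelled +/- 12 dpp replicate 4, with a change of 0.62 to 0.87 and a limma adjusted p of 0.0507 to 0.0772.

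**Figure D4:**
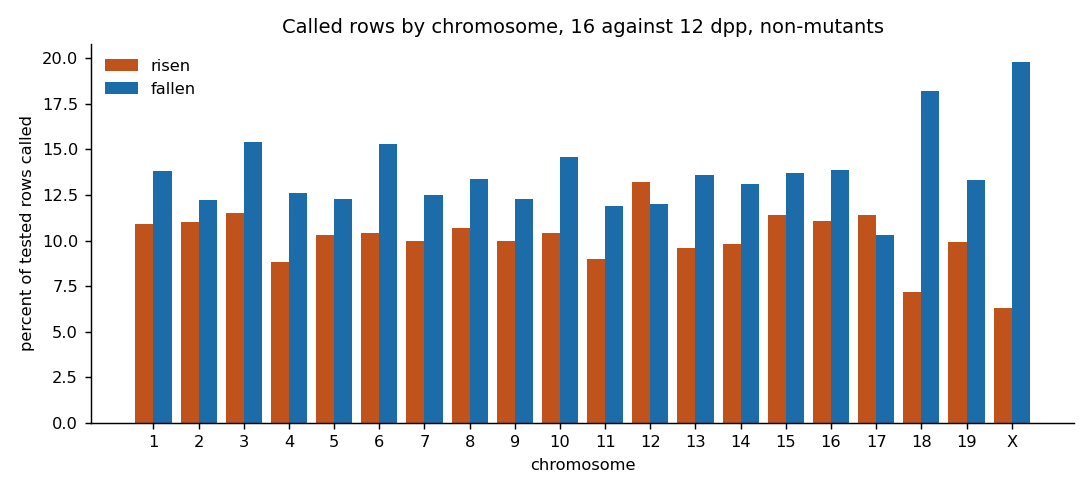
Percent of the tested genes of each autosome and the X chromosome that rose or fell between 12 and 16 dpp. The X chromosome has the highest share of falls, 19.8%, and the lowest share of rises, 6.29%, with chromosome 18 next at 18.2% and 7.20%.

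The same step was set against that of the 10 -/- libraries of 12 and 16 dpp, to test which rises differed in animals with no working Prdm9. One fit of all 30 libraries gave the difference of the 2 steps for 20021 genes. Each -/- animal of these ages had a non-mutant litter mate. The fit, which gave every difference from mutants below, did not pair them. It also pooled 1 spread per gene over all 6 groups. Where the 16 dpp non-mutants spread more than the other groups, the SE and p of a difference can be too small. The step was higher in non-mutants for 253 genes (1.26%) and lower for 17 (0.0849%). Without +/- 16 dpp replicate 1 the counts were 494 and 45, and with litter as a random effect they were 384 and 63. Of the 549 genes that rose by over 1, 230 had a step called higher than in mutants and 2 a lower one. With both 12 dpp libraries of litter 13 left out, 186 of the 549 were called higher. Ldhc was at a mean of 1.76 TPM at 12 dpp and 4.53 TPM at 16 dpp in mutants, and the non-mutant step exceeded theirs by 4.81 (SE 0.61; limma adjusted p = 1.26e-05). Piwil1 stayed at 3.24 and 3.29 TPM in mutants, and the difference of steps was 3.69 (SE 0.44; limma adjusted p = 4.79e-06). Fbp1 was at 0.15 and 0.12 TPM in mutants, a difference of 4.14 (SE 0.59; limma adjusted p = 6.36e-05). Morc2b differed by 3.32 (SE 0.34; limma adjusted p = 7.14e-07) and Rfx4 by 2.09 (SE 0.35; limma adjusted p = 0.00063). Fbp1, Morc2b and Rfx4 were among the 133 of the 549 that entered the age step only through 16 dpp. The fit of 30 libraries asked for 5 libraries over 1 TPM, so such genes could enter it through the 16 dpp non-mutants alone. Where they did, a higher step in non-mutants was built in. All 12 genes with the largest rises had a step called higher than in mutants. These differences share the 10 non-mutant libraries with the rises above and are no independent evidence of them.

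Members whose step was called higher in non-mutants were 34 of 84 for the axoneme and flagellum, 12 of 32 for energy metabolism, 6 of 23 for the acrosome, 5 of 11 for retrogenes, 4 of 9 for sperm surface genes and 6 of 13 for the piRNA loci. In these lists 13, 3, 2, 3, 1 and 6 members, in the same order, had entered the age step only through 16 dpp. For those members a higher step could be built in. A higher step was called in 3 of 34 PIWI factors, Piwil1, Tdrd5 and Tdrd6, and in 2 of 27 pachytene regulators, Hsf5 and Rfx4. None was called among 35 genes of the synaptonemal complex, 35 of strand exchange, 26 of crossover formation, 22 of break formation, 14 of telomere attachment, 39 of ATR signalling and 29 of meiotic entry. Over all genes 1.26% had a step called higher, so 0 in lists of these sizes lies near that share and is no finding. At an unadjusted p under 0.05 limma gave 2, 3, 1, 0, 0, 1 and 1 higher in these lists and 1, 0, 0, 0, 0, 2 and 0 lower.

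Several genes rose in both classes with no called difference, Sycp3, Hormad1, Spo11, Tex101, Brdt, Rfx2, Mybl1 and Kctd19 among them. Between mutant and non-mutant steps Sycp3 differed by 0.12 (SE 0.33; limma adjusted p = 0.99). Hormad1 differed by 0.15 (SE 0.40; limma adjusted p = 0.988) and Spo11 by 0.3 (SE 0.29; limma adjusted p = 0.95). Tex101, the surface glycoprotein, differed by 0.18 (SE 0.42; limma adjusted p = 0.985) and Brdt by 0.42 (SE 0.23; limma adjusted p = 0.787). Rfx2 rose by 1.84 in non-mutants and differed by 1.02 (SE 0.36; limma adjusted p = 0.295), and Mybl1 by 0.12 (SE 0.23; limma adjusted p = 0.978). Kctd19 differed by 1.11 (SE 0.39; limma adjusted p = 0.284). A missed threshold does not show that the steps are equal. None of the 12 genes with the largest falls had a called difference, with adjusted p from 0.706 upward in limma. Of the 109 genes that fell by over 1, 0 had a higher and 1 a lower step in non-mutants, and 0 and 9 at an unadjusted p under 0.05. Sel1l3, for one, fell to a mean of 8.89 TPM in mutants and 12.3 TPM in non-mutants.

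Of the 17 genes with a lower step in non-mutants, 7 were X-linked and 1 Y-linked, where 711 of the 20021 genes in the fit were X-linked. Over all 20021 genes 0.0849% had a lower and 1.26% a higher step. None of the 711 X-linked genes had a higher step. At an unadjusted p under 0.05 limma gave 0 of the 711 higher and 120 lower. Zfy1 went from 3.19 to 5.37 TPM in non-mutants and from 3.05 to 12.5 TPM in mutants, a difference of -1.13 (SE 0.26; limma adjusted p = 0.0186). Zfy2 differed by -1.20 (SE 0.35; limma adjusted p = 0.118), which was not called. Rbbp7, an X-linked histone chaperone, went from 405 to 360 TPM in non-mutants and from 385 to 425 TPM in mutants, a difference of -0.31 (SE 0.07; limma adjusted p = 0.0196). Prame went from 1.07 to 0.82 TPM against 0.86 to 2.43 TPM, and Nxt2, an export factor, from 17.2 to 18.6 TPM against 16.4 to 33.0 TPM. Without +/+ 12 dpp replicate 1 the count of lower steps was 30.

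**Figure D5:**
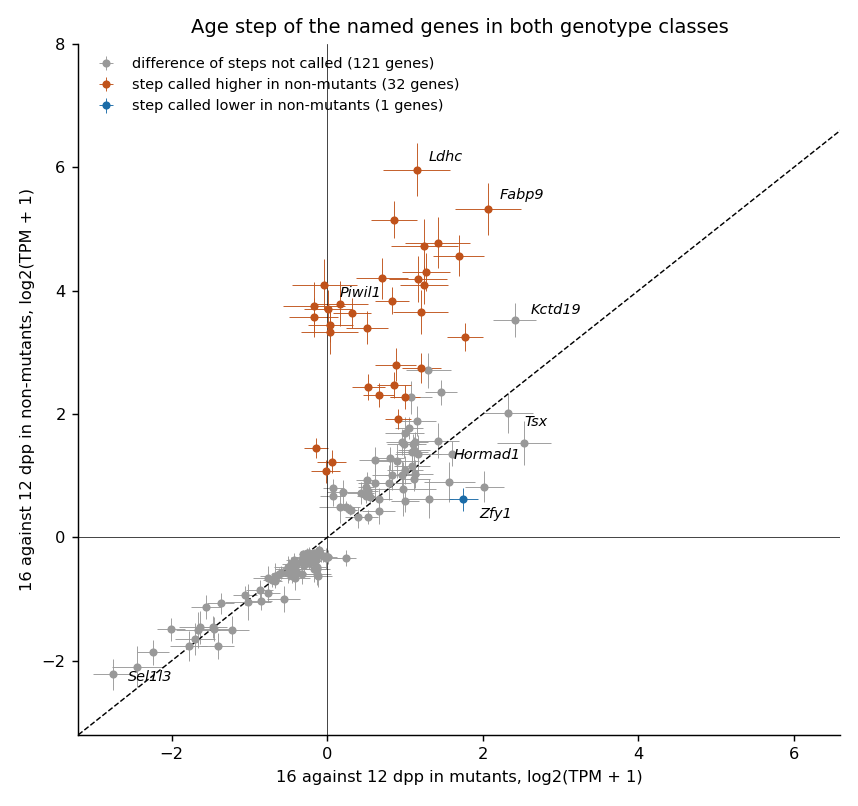
Change from 12 to 16 dpp in non-mutants (vertical) against the change in mutants (horizontal) of the 154 named genes, in log2(TPM + 1) with SE bars, both from the fit of 30 libraries, and a dashed line where both are equal. Orange points are the 32 genes with a step called higher in non-mutants and the blue point is Zfy1, with 121 genes in grey near the line or not called.

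The rise was also set against the step before it, from 8 to 12 dpp, in non-mutants alone, with 3 +/+ and 2 +/- libraries at 8 dpp. The 2 steps share the 12 dpp libraries, so a low 12 dpp value raises 1 step and lowers the other. The later step was above the earlier for 505 of 20021 genes (2.52%) and below it for 824 (4.12%). That balance depended on scaling and samples, with 920 above and 311 below after median-ratio scaling and 259 and 106 with +/- libraries alone. Among the 549 genes that rose by over 1, the later step was above the earlier in 272 and below it in 4. For the 133 of them that entered the age step only through 16 dpp, a higher later step could be built in by the filter. Ldhc had changed by -0.30 from 8 to 12 dpp, and its later step exceeded this by 6.26 (SE 0.75; limma adjusted p = 7.45e-06). Piwil1 had changed by 0.42 and its later step exceeded this by 3.28 (SE 0.54; limma adjusted p = 0.000431). For Dmc1 the later minus the earlier step was -1.79 (SE 0.36; limma adjusted p = 0.00269), and for Msh5, a crossover factor, it was -1.47 (SE 0.33; limma adjusted p = 0.00771). Among break formation genes 7 of 22 had a later step below the earlier, in the synaptonemal complex list 5 of 35 and in the crossover list 5 of 26. Of the 109 genes that fell by over 1, 8 had a later step below the earlier and 1 above it. Cadps was among the 8, with a change of 0.18 before 12 dpp and a difference of -1.84 (SE 0.45; limma adjusted p = 0.0132). Leaving out 1 library moved the 824 genes with a lower later step to 448 for +/+ 8 dpp replicate 1, to 242, 502 and 382 for +/- 12 dpp replicates 2, 3 and 4, to 462 for +/+ 16 dpp replicate 2 and to 1304 for +/- 16 dpp replicate 1.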

How the data were processed

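RNA of enriched testicular germ cells was sequenced from 30 mice, and the values used are the TPM values that the authors deposited in 1 table, with 2 decimals and 1 column per library. The submitters' processing notes name RSEM 1.2.8, Bowtie 1.0.0 and the builds mm10 and GRCm38, with no role or order. Strand use and gene models are not given in the sources used here, and litters come from the table's header line, per the file headers. The table holds 65534 genes and loci (38906 from Ensembl, 26523 from NONCODE and 105 piRNA loci), ends inside the NONCODE identifiers and was held in part, so 3.57 to 3.95% of each library's TPM lay outside it. GENCODE M21 gave names and positions for 37709 of the Ensembl genes.

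The tests were limma-trend fits (limma 3.58.1, R 4.3.3; Python 3.11.15, pandas 2.3.3 and matplotlib 3.10.9 for the rest) on log2(TPM + 1), two-sided, with Benjamini-Hochberg adjustment over every gene tested and a threshold of 0.05. Genes were kept where they were over 1 TPM in at least as many libraries as the smallest group held, 5 in the main fits. With a library of the smallest group size left out, or with +/- libraries alone, fewer were asked for. More genes were then tested, 18528 in the age step with +/- libraries alone, so these alternatives also differ in filter. The age step used the 10 non-mutant libraries. Both differences of steps used 1 fit of 6 groups, 30 libraries in all, with no litter term and 1 pooled spread per gene. On simulated data for 17814 genes, 92 of 100 changes of 1 on the log2 scale and 100 of 100 of 2 were recovered, with 6 false calls among 198. In the real libraries of the later age, most risen genes shared an order of libraries, and large rises spread widely. Whether the simulated rates hold for such data was not tested, so they give no error rate for the calls above. TPM keeps no read depth, so no counting interval is given.

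The members and gene lists were chosen with earlier results of these data known. The genes named by size are the 12 largest rises and the 12 largest falls called by limma whose mean reached 1 TPM, with a settled symbol and no overlap of the groups, and each list gives up to 4 called members per direction by adjusted p. Other list members were named after their values were seen, and 2 symbols of the crossover list were corrected against the annotation. Alternatives were other scalings, filters, a pseudocount of 0.1, array weights, robust fits, genotype, litter and replicate terms, +/- libraries alone and leaving out each library in turn.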

Additional observations from a re-analysis of the deposited data

Results flagged for a closer look

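In 5 of 50 groups of 5 libraries examined, 1 library stood apart from the rest by Dixon's test, for which chance gives about 1 in 20. Ldhc was at 4.27 TPM in +/- 12 dpp replicate 1, against 1.66 to 2.04 TPM in the other 4 libraries of that age. Adam2 was listed at 0.0 TPM in the library labelled +/- 12 dpp replicate 4, against 0.28 to 0.38 TPM. Lpl was at 43.88 TPM in +/- 12 dpp replicate 3, against 21.02 to 26.5 TPM. At 16 dpp, Kcnt1 was at 15.39 TPM in +/- replicate 1, against 6.0 to 8.66 TPM, and Tnfrsf12a at 149.75 TPM in the same library, against 59.39 to 82.58 TPM. The library +/- 16 dpp replicate 1 also had the smallest rise in all 12 genes with the largest rises.

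The step from 12 to 16 dpp differed between non-mutants and mutants in all 12 genes with the largest rises, by limma's test of the difference itself. The non-mutant step exceeded the mutant step, on the log2 scale, by 4.81 for Ldhc, 4.29 for Mroh4, 4.14 for Fbp1 and 3.5 for Zmynd10. For Crisp2 the excess was 3.48, for Spata4 3.37, for Fabp9 3.26 and for Adam2 3.03. It was 3.02 for Dkkl1, 3.01 for Ptchd3, 2.89 for Pdcl2 and 2.85 for Smim24. In non-mutants the same 12 genes had a later step above the step from 8 to 12 dpp. That difference was 6.26 for Ldhc, 5.12 for Spata4, 4.77 for Mroh4, 4.68 for Crisp2 and 4.54 for Fabp9. It was 4.38 for Zmynd10, 4.34 for Fbp1, 4.28 for Adam2, 4.24 for Pdcl2, 4.04 for Smim24, 3.92 for Dkkl1 and 3.87 for Ptchd3. Cadps was the 1 gene among the 12 largest falls with a called difference of this kind, -1.84. Both comparisons share the 10 non-mutant libraries with the age step that chose these genes, and neither is independent of it. Fbp1 and Adam2 could enter the fit of 30 libraries through the 16 dpp non-mutants alone, so for them both differences could be built in.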

How the results depend on the processing

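No named gene changed direction under the alternatives run. The balance of calls was not stable. In the age step more genes rose than fell after median-ratio scaling, without a filter, with +/- libraries alone, with the replicate block, and without +/- 12 dpp replicate 3 or +/+ 16 dpp replicate 2. In the later minus the earlier step the balance also turned under several settings, among them median-ratio scaling and +/- libraries alone. The 24 genes named by size kept their calls in all 22 alternatives each. Over all 189 genes followed, 3801 of 4158 alternative values stayed on the same side of the threshold, 344 lost a call and 13 gained one. Calls were lost for 45 of these genes with the replicate block, 29 without a filter and 18 after median-ratio scaling. For the age step (3837 called, 1601 risen and 2236 fallen), leaving out 1 library gave 2541 to 5065 called, 1355 to 3203 fallen and 89 to 181 fallen by over 1. The fallen numbered 1295 without a filter, those fallen by over 1 numbered 236 at pseudocount 0.1, and 2426 rose and 1636 fell after median-ratio scaling. With +/- libraries alone 2112 were called and 860 fell. Same-numbered libraries of 12 and 16 dpp did not deviate together (correlations of -0.004, -0.152, -0.056 and 0.002), so the number does not pair them. With the replicate block 1731 were called and 518 fell, and the block took the lower differences from mutants to 9. Among the lists, fallen undifferentiated spermatogonial genes went from 11 to 2 with +/- libraries alone, with the block or without a filter. Fallen Sertoli markers went from 13 to 8 and 6, DNA methylation genes from 6 to 3 and 2 and X-linked genes from 129 to 51 and 29, with +/- libraries alone and with the block, and X-linked falls to 71 without a filter. For the difference from mutants (270 called, 253 higher and 17 lower), leaving out 1 library gave 192 to 539 called, 178 to 494 higher and 12 to 45 lower. Pseudocount 0.1 gave 168 called, 160 higher and 8 lower, no filter 416, 389 and 27, array weights 505, 434 and 71, +/- libraries alone 525, 497 and 28, and litter as a random effect (litter mate correlation 0.294) 447, 384 and 63. Without the 12 dpp pair of litter 13, chosen after seeing the data, 240 were higher and 12 lower. For the later minus the earlier step (1329 called, 505 higher and 824 lower), leaving out 1 library gave 594 to 2009 called, 352 to 705 higher and 242 to 1304 lower. No filter gave 441 lower, median-ratio scaling 920 higher and 311 lower, and +/- libraries alone 365 called, 259 higher and 106 lower. For moves with no value shown here, the cause was not tested. Depth cannot be read from TPM.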

Other observations

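Several groups outside the meiotic lists were also read. The 13 messengers of the mitochondrial genome summed to 74851 to 110814 TPM at 12 dpp and 90884 to 152439 TPM at 16 dpp. The median change of the 12 tested was 0.39, and limma called 0 of 12, with 8 higher and 0 lower at an unadjusted p under 0.05. Without +/- 16 dpp replicate 1 the rises numbered 7, without +/+ 12 dpp replicate 1 they numbered 4, without +/- 16 dpp replicate 2 there was 1, and the fit of 30 libraries called 7. Among macrophage markers, Cd14, a receptor for bacterial lipopolysaccharide, was at 0.78 to 1.2 TPM at 12 dpp and 1.29 to 5.09 TPM at 16 dpp, and C1qa, a complement subunit, at 5.36 to 13.7 and 10.5 to 29.7 TPM. The groups of Cd14 did not overlap and those of C1qa did. Of 21 genes of dissociation stress 1 rose and 3 fell, and 6 fell without +/+ 12 dpp replicate 1. Of 12 endothelial markers 0 rose and 1 fell, with 0 and 2 at an unadjusted p under 0.05 in limma. Of 6 erythroid genes and of 5 spermatid genes tested, out of 25 listed, 0 were called, and limma gave 0 at an unadjusted p under 0.05 in either list. Of 9 Y-linked genes 2 rose and 1 fell, and 0 were called with +/- libraries alone. The fall was lost without any of 7 single libraries, all but +/+ 12 dpp replicate 1, +/- 12 dpp replicate 1 and +/- 16 dpp replicate 1, and 1 rise was lost without any of 8, all but +/- 12 dpp replicate 3 and the library labelled +/- 12 dpp replicate 4.

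The largest X-linked difference in the direction opposite to most named genes was that of 1700080O16Rik. Its mean went from 4.43 to 5.65 TPM in non-mutants and from 4.28 to 27.2 TPM in mutants, so the non-mutant step was lower by -2.15 (limma adjusted p = 0.000417). Cypt1, an X-linked gene, was listed at 0.0 TPM in the non-mutant libraries of both ages and at means of 0.1 and 1.36 TPM in mutants. Pet2 went from 13.99 to 17.4 TPM in non-mutants and from 13.2 to 37.2 TPM in mutants. Of the 17 lower steps, Gm13988 and 1 NONCODE locus had the same mean in every group, 2.11 and 6.76 TPM in non-mutants and 2.28 and 21.1 TPM in mutants.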
